A study of Mus musculus with 12 samples.

Results

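The response of Ptprz1-deficient (KO) mouse macrophages to LPS+IFNγ was described across all genes. Ptprz1 encodes protein tyrosine phosphatase receptor type Z1, a membrane phosphatase whose ligands include pleiotrophin and midkine. The comparison took 4 of the 12 libraries in the series. In 2 of them KO macrophages had received 100 ng/mL LPS, the lipopolysaccharide of Gram-negative bacteria, together with 10 ng/mL IFNγ over 24 h, which the labels name M1, and in the other 2 KO macrophages were left as control. Libraries were taken by their titles and genotype labels, and no measured value entered that choice. Bone marrow cells of every group had been cultured with M-CSF, the macrophage growth factor, at 10 ng/mL over 6 days. The other 8 libraries are 2 of KO cells under 20 ng/mL IL-4 and 6 of wild-type (WT) cells, 2 in each of the same 3 conditions. The strain label reads B6.129-Ptprz1tm1Nmo for KO and WT samples alike, while titles of WT samples begin with B6. Whether both libraries of a group stem from different mice or cultures is not in the labels. The p-values therefore reflect only how far libraries of a group differ, which may be technical. That spread was estimated over all 12 libraries, so p-values in KO rest in part on WT libraries.

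LPS is sensed by Toll-like receptor 4 with its partner MD-2, and the signal runs through the adaptors MyD88 and TRIF to the transcription factors NF-κB and IRF3. IFNγ binds its own receptor, whose kinases JAK1 and JAK2 lead to binding at the GAS element of promoters. TRIF signalling also leads macrophages to make type I interferon, which acts through STAT2 and IRF9 on another element, the ISRE. Together the stimuli drive macrophages to make nitric oxide, inflammatory cytokines, chemokines for T cells and antimicrobial GTPases, and they are known to slow the division that M-CSF sustains.

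Total counts were 18235634 and 13665607 after LPS+IFNγ and 19555600 and 18570930 in control, for libraries 1 and 2 of each group. Levels below are in CPM (the usual depth-scaled counts, here with library sizes corrected by TMM factors), in this library order, and with 0 counts a level of as much as 0.290 CPM is still possible in the shallowest of the 4. Ptprz1 had 0 counts in all 4 libraries, but also in every WT library except 1 under IL-4, so its transcript cannot check the genotype here. All 10 macrophage markers examined, such as Adgre1, Cd68, Csf1r and Itgam, were detected in all 4 libraries. Among markers of other cell types, Cd3e and Cd8a of T cells, Ly6g of neutrophils and Cpa3 of mast cells had 0 counts in all 4. Other members of their lists were detected. T and NK cell markers summed to 2.5 and 1.26 CPM after LPS+IFNγ and 2.9 and 2.83 CPM in control. In the same order B lineage markers summed to 6.28, 1.74, 31.2 and 33.05 CPM, and mast cell markers to 0.405, 0, 0.599 and 0.0488 CPM. Dendritic cell markers summed to 1191, 1097, 211 and 235 CPM, and erythroid and megakaryocyte markers to 46.25, 18.2, 93.7 and 49.4 CPM. The dendritic list includes Bst2, a gene known to be induced by interferon in macrophages too. Stromal markers such as collagens summed to 522 and 1239 CPM after LPS+IFNγ and 575 and 1600 CPM in control, so they were higher in library 2 of both groups. This list also holds endothelial genes. Of its 16 members tested, 2 were called higher (the endothelial genes Pecam1 and Kdr), 0 lower and 14 were not called. Granulocyte markers summed to 196 and 428 CPM after LPS+IFNγ and 41.0 and 24.3 CPM in control. That sum was mostly Mmp8 and S100a8, the 2 of 7 tested members that were called higher, while Ly6g, Elane and Ctsg were at 0 counts. Of the other marker lists, 2 of 5 dendritic cell genes were called higher (Bst2 and Ccr7) and 1 lower (Itgax), 1 of 5 B lineage genes lower (Ighm), 1 of 8 osteoclast genes higher and 2 lower, 1 of 3 T and NK cell genes higher and 1 lower, 1 of 2 megakaryocyte genes lower (Pf4), and the 1 mast cell gene tested was not called. Under total counts 0 osteoclast genes were called higher and 5 lower, and 0 T and NK cell genes higher and 1 lower. Several of these calls rested on single libraries. No stromal gene was called without LPS+IFNγ library 1, no osteoclast gene was called higher without LPS+IFNγ library 1 or control library 1, and no T or NK cell gene was called higher when any 1 of the 4 libraries was left out. Pecam1 was not called without LPS+IFNγ library 1 (adjusted p = 0.127) or control library 2 (0.056), and Ccr7 likewise (0.114 and 0.0655). Kdr was not called without LPS+IFNγ library 1 (0.0929), LPS+IFNγ library 2 (0.0546) or control library 1 (0.136), and Pf4 without LPS+IFNγ library 2 (0.111) or control library 1 (0.148). The log2 fold change of Itgax was −1.09 without control library 2 and −1.69 with it, and the fitted one of Ighm was −8.08 without LPS+IFNγ library 1 and −4.38 with it. The part of these other cell markers in the results was not tested. In bulk RNA, fewer cells of a type and less RNA per cell cannot be told apart.

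The KO libraries of a group differed from each other more than WT libraries did. The chi-square per gene between libraries was 53.8 after LPS+IFNγ and 48.4 in control for KO cells, against 7.81 and 7.10 for WT cells. Because the tests share their spread over all groups, p-values of the KO response draw in part on these closer WT libraries. KO control library 1 stood apart by its interferon-induced and acute-phase transcripts. Saa3, an acute-phase protein of macrophages, had 20819 and 19857 CPM in LPS+IFNγ libraries, against 69.8 and 1.56 CPM in control libraries. KO control library 2 stood apart in other genes. Its mitosis genes summed to 1881 CPM, against 3133 CPM in KO control library 1 and 3771 and 3642 CPM in WT control libraries. In the same order cholesterol synthesis genes summed to 1641 CPM, against 1134, 1082 and 1053 CPM. Cd74, the class II invariant chain, was at 40.5 CPM, against 143, 146 and 144 CPM. KO LPS+IFNγ library 2 held more of several cytokine transcripts than library 1. The part of these differences in the results was not tested, and values without a single library are given below beside the results concerned.

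Changes after LPS+IFNγ were broad and went in both directions. Of 13525 genes tested, 7203 (53.3%) were called by edgeR's quasi-likelihood test at an adjusted p below 0.05, 3676 higher (27.2%) and 3527 lower (26.1%). The share called was lower in fits with fewer libraries, at 42.5% to 45.8% without 1 KO library of either group, 42.4% with the 6 KO libraries alone and 41.4% with the 4 libraries alone, and was 30.3% of 22844 genes with no filter on low counts. The median log2 fold change was 1.15 among genes called higher and −1.26 among those called lower. An absolute log2 fold change of at least 1 was met by 4221 called genes (31.2%), of which 2060 were higher and 2161 lower. The largest changes were more often rises, with 329 genes called at a log2 fold change of at least 5 and 210 at one of at most −5. The groups did not overlap for 10022 genes (74.1%). Genes called higher held 62.4% and 64.5% of all CPM after LPS+IFNγ, against 28.0% and 26.3% in control. Genes called lower held 14.5% and 13.6% after LPS+IFNγ, against 41.0% and 42.3% in control. The split between directions rests on the scaling. With total counts in place of TMM factors, 1990 genes were called higher and 6049 lower, and the median over all genes was −0.51 in place of −0.01 on the log2 scale. Changes below are relative to a median near 0, and small ones can change sign under total counts. Counts called in a gene list below stand against 27.2% higher and 26.1% lower over all genes tested.

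**Figure D1:**
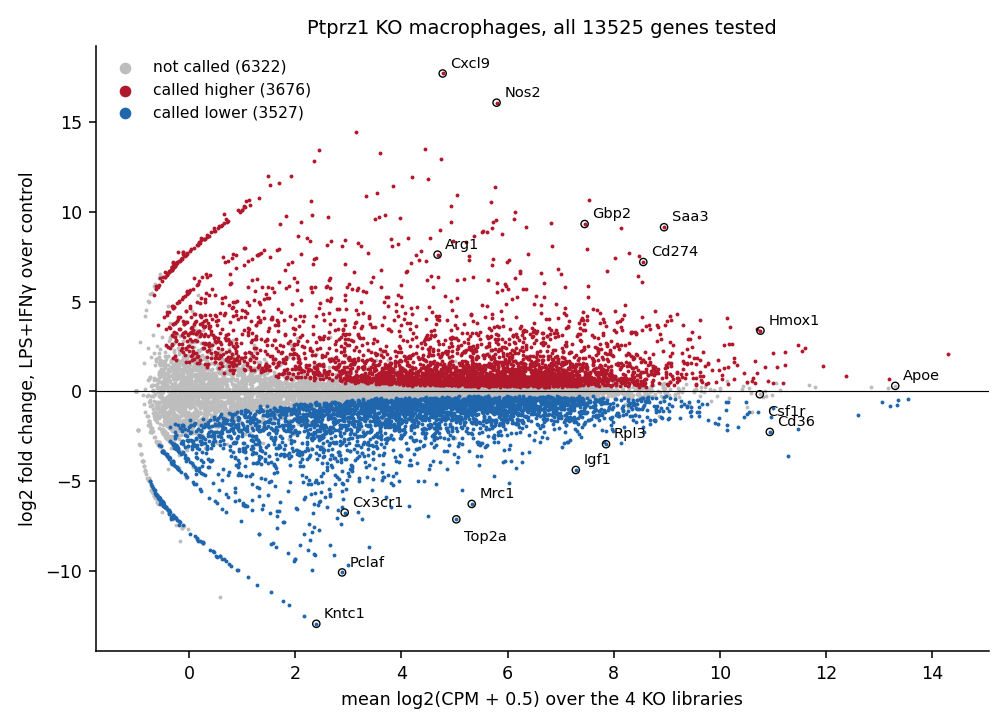
Each point is 1 of 13525 genes in the KO libraries, with its mean level over the 4 libraries on the x axis, as log2(CPM + 0.5), and its log2 fold change of LPS+IFNγ over control on the y axis. Red points are the 3676 genes called higher and blue points the 3527 called lower. The curved edges are genes with no counts in 1 of the groups, whose fitted change depends on the prior count.

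Among genes with at least 10 CPM in the higher group, the 15 largest rises included chemokines, GTPases and Nos2, which are known interferon targets. Cxcl9, an IFNγ-dependent chemokine for T cells, had 1473 and 1534 CPM in LPS+IFNγ libraries, against 0 and 0 CPM in control libraries, which is at least 10281-fold higher (adjusted p = 1.18e-06). Nos2, which encodes the inducible synthase of nitric oxide, had 5123 and 5782 CPM in LPS+IFNγ libraries, against 0.138 and 0 CPM in control libraries. Its 3 counts in control give a ratio of 75900 (95% interval for counting error 26000 to 368000; adjusted p = 1.75e-07). Both genes were at or next to the detection limit in control and abundant after LPS+IFNγ. In all, 13 genes had 0 counts in both control libraries and at least 5 CPM in both LPS+IFNγ libraries. They included Cxcl11, another chemokine for T cells, with 133 and 178 CPM in LPS+IFNγ libraries, against 0 and 0 CPM in control libraries, at least 1065-fold higher. Lipg, the endothelial lipase, had 26 and 133 CPM in LPS+IFNγ libraries, against 0 and 0 CPM in control libraries. Lrrc4, a leucine-rich repeat membrane protein, had 34.1 and 23.1 CPM in LPS+IFNγ libraries, against 0 and 0 CPM in control libraries. The spread between LPS+IFNγ libraries was wide for Lipg and narrow for Cxcl9 and Cxcl11.

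The largest falls were mostly of genes of DNA replication, repair and mitosis. Kntc1, a subunit of the kinetochore complex that carries dynein to chromosomes, had 0 and 0 CPM in LPS+IFNγ libraries, against 60.2 and 49.97 CPM in control libraries, at least 189.6-fold lower (adjusted p = 2.37e-07). Pbk, a mitotic kinase, had 0 and 0 CPM in LPS+IFNγ libraries, against 49 and 31.7 CPM in control libraries, at least 139-fold lower, and E2f7, a repressor of the E2F family, had 0 and 0 CPM in LPS+IFNγ libraries, against 30.4 and 22.9 CPM in control libraries, at least 91.8-fold lower. Of the 15 genes with the largest falls, Rasgrp3 and Hpgd are known for neither replication, repair nor division. Rasgrp3, an exchange factor for Ras that limits Toll-like receptor signalling in mouse macrophages, had 0 and 0 CPM in LPS+IFNγ libraries, against 21.7 and 23.6 CPM in control libraries. Hpgd, the dehydrogenase that inactivates prostaglandin E2, had 0 and 0.0968 CPM in LPS+IFNγ libraries, against 41 and 20.3 CPM in control libraries. All 15 were at or below 0.290 CPM in both LPS+IFNγ libraries and at 7.31 CPM or more in both control libraries.

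**Figure D2:**
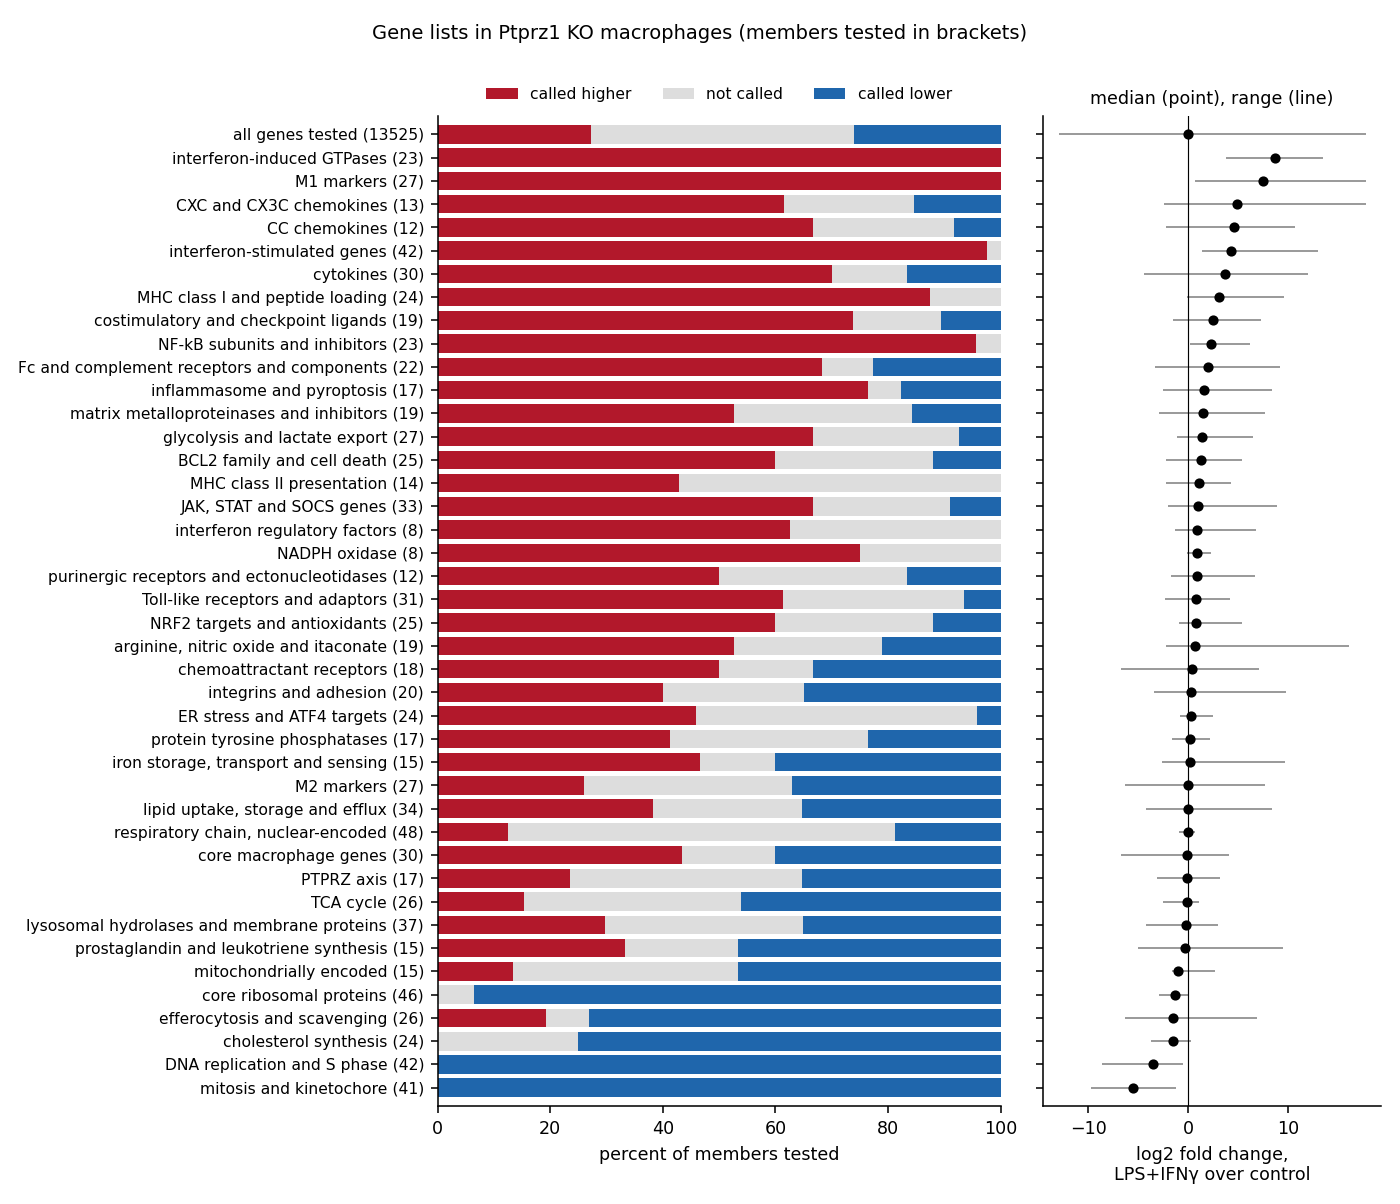
Bars show, for each gene list, the percent of its tested members that were called higher (red), not called (grey) or called lower (blue) in KO cells. Points and lines to the right give the median and range of the members' log2 fold changes, LPS+IFNγ over control. All members of the M1 marker and interferon-induced GTPase lists were called higher and all members of the 2 cell cycle lists lower. The lists were chosen with earlier results of these data known.

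Genes of JAKs, STATs, SOCS proteins and cytokine receptor chains mostly rose, and a receptor chain of IFNγ was among those that fell. Of 33 genes of JAKs, STATs, SOCS proteins and cytokine receptor chains, 22 were called higher and 3 lower, with a median log2 fold change of 1.02 against −0.01 over all genes tested. Under total counts 16 were called higher and 7 lower, with a median of 0.51 against −0.51. Ifngr1, the ligand-binding chain of the IFNγ receptor, had 95.9 and 71.9 CPM in LPS+IFNγ libraries, against 200.2 and 183 CPM in control libraries (log2 fold change −1.19 ± 0.15, SE; adjusted p = 0.000111). Stat2, a transcription factor of type I interferon signalling, had 1121 and 1259 CPM in LPS+IFNγ libraries, against 95.1 and 48.3 CPM in control libraries (4.05 ± 0.31, adjusted p = 6.26e-06). Feedback inhibitors rose as well. Socs1, which blocks JAK kinases, had 55.1 and 71.7 CPM in LPS+IFNγ libraries, against 0.645 and 0.244 CPM in control libraries (7.12 ± 0.42, adjusted p = 1.61e-06), and Socs3, an inhibitor of cytokine receptors that share gp130, had 802 and 1219 CPM in LPS+IFNγ libraries, against 3.55 and 0.634 CPM in control libraries (8.9 ± 0.65, adjusted p = 4.59e-06). Of 8 interferon regulatory factors tested, 5 were called higher and 0 lower. Irf1, a factor known to be induced by IFNγ, had 504 and 634 CPM in LPS+IFNγ libraries, against 60.8 and 37.7 CPM in control libraries (3.53 ± 0.32, adjusted p = 1.6e-05), and Irf7, which amplifies type I interferon, had 3012 and 2840.1 CPM in LPS+IFNγ libraries, against 48.8 and 6.53 CPM in control libraries (6.72 ± 0.87, adjusted p = 0.000163). Irf8, a lineage factor of macrophages, was not called at 142 and 169 CPM after LPS+IFNγ and 149.8 and 112 CPM in control (adjusted p = 0.226), but was without control library 1 (0.46, adjusted p = 0.0473).

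Of 42 interferon-stimulated genes tested, 41 were called higher and 0 lower, Ifi27l2a not being called, with a median log2 fold change of 4.27. The list summed to 47520 and 59770 CPM after LPS+IFNγ and to 3574 and 1366 CPM in control. Rsad2, the antiviral enzyme viperin, had 7541 and 8358 CPM in LPS+IFNγ libraries, against 24.8 and 3.56 CPM in control libraries (log2 fold change 9.13 ± 0.86, SE; adjusted p = 2.07e-05). Mx1, a dynamin-like antiviral GTPase, had 1398 and 1444 CPM in LPS+IFNγ libraries, against 3.59 and 0.439 CPM in control libraries (9.44 ± 0.73, adjusted p = 6.52e-06). Ifit3, which binds viral RNA with its partners, had 1174 and 2422 CPM in LPS+IFNγ libraries, against 36.5 and 2.1 CPM in control libraries (6.54 ± 1.1, adjusted p = 0.00081). Ifit1bl1, a member of the same family, had 834 and 1562 CPM in LPS+IFNγ libraries, against 0.23 and 0.0487 CPM in control libraries (12.97 ± 0.58, adjusted p = 8.72e-07). In each of these genes control library 1 lay above control library 2, and both LPS+IFNγ libraries lay above both controls. The latter held for 5007 of all 13525 genes tested. Without control library 1 the median of the list was 5.38 and 42 members were called higher; without control library 2 it was 3.71 with 41 higher.

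All 23 tested GTPases induced by interferon were called higher. Their log2 fold changes ranged from 3.79 to 13.48 with a median of 8.71. These proteins coat the vacuoles of intracellular pathogens and help to break them. Gbp2, a guanylate-binding protein, had 3435 and 5477 CPM in LPS+IFNγ libraries, against 9.07 and 4.73 CPM in control libraries (log2 fold change 9.33 ± 0.46, SE; adjusted p = 6.03e-07). Gbp5, a member that promotes inflammasome assembly, had 1357 and 2242 CPM in LPS+IFNγ libraries, against 1.84 and 0.487 CPM in control libraries (10.57 ± 0.55, adjusted p = 8.28e-07). Iigp1, an immunity-related GTPase, had 551 and 1035 CPM in LPS+IFNγ libraries, against 0.415 and 0 CPM in control libraries (11.82 ± 0.65, adjusted p = 1.07e-06), and Irgm1, a regulator of that family, had 577 and 738 CPM in LPS+IFNγ libraries, against 62.1 and 33.2 CPM in control libraries (3.79 ± 0.29, adjusted p = 6.38e-06). Irgm1 was thus well expressed before stimulation, while Iigp1 was near the detection limit. Genes of the GTPase families with near-identical copies may share reads, so single values among them are uncertain. By family, 11 of 11 guanylate-binding proteins, 7 of 7 Schlafen proteins, 12 of 12 proteins of the p200 family, which includes DNA sensors, and 8 of 8 oligoadenylate synthetases were called higher.

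Promoters of genes that rose and of 1 that fell are shown as the 250 bases before the annotated start in RefSeq, build GRCm38.p6, on the strand of the gene, so that the interferon elements can be read beside the values. Capitals mark matches on either strand to 4 motifs. These are the ISRE core (GAAA, any 2 bases, GAAA), the GAS element (TTC, any 3 bases, GAA), a κB site (GGG, any 5 bases, CC), and an E2F site TTTGGCGC or TTTCCCGC, and matches that overlap are merged. The E2F motif and the genes shown were chosen after values were seen.
Cxcl10, chr5:92348890-92349139, minus strand: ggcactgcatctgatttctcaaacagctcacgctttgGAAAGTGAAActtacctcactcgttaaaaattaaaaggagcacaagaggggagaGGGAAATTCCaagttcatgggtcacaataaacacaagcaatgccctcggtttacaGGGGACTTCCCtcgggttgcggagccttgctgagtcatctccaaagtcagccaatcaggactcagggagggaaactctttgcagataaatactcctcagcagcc
Gbp2, chr3:142620413-142620662, plus strand: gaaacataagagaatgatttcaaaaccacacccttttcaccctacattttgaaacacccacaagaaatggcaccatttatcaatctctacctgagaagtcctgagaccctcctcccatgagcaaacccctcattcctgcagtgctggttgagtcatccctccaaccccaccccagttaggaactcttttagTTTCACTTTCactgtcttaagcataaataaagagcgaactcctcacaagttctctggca
Ifit3, chr19:34583279-34583528, plus strand: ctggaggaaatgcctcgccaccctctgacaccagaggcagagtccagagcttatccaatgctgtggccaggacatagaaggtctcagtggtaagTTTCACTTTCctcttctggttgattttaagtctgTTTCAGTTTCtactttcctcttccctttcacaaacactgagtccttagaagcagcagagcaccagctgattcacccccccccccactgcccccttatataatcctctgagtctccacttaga
Irf1, chr11:53769764-53770013, plus strand: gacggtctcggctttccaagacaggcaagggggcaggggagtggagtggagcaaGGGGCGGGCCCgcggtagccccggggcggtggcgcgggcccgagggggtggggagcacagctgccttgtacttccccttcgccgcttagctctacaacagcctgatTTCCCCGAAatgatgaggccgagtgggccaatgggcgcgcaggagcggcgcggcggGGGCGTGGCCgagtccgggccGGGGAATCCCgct
Mcm5, chr8:75109259-75109508, plus strand: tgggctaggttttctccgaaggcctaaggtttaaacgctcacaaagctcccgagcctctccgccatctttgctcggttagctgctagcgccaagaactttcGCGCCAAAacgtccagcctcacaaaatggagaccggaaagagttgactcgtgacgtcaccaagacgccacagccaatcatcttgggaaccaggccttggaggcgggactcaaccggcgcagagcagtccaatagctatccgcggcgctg
In Cxcl10 the capitals hold 1 ISRE core and κB matches, in Gbp2 1 ISRE core on the opposite strand, in Ifit3 2 such cores, in Irf1 1 GAS element and κB matches, and in Mcm5 1 E2F site. The ISRE core was found in 290 of 9874 tested genes with a promoter in the table (2.94%). It was found in 11 of 12 GTPase promoters (91.7%), 13 of 31 promoters of interferon-stimulated genes (41.9%) and 35 of 196 promoters of genes called at a log2 fold change of at least 5 (17.9%). The GAS element was found in 589 of the 9874 (5.97%), in 7 of the 12 GTPase promoters (58.3%) and in 23 of the 196 (11.7%). The κB motif was in 61.6% of all tested promoters, in 50.0% of the 196 and in 15 of 18 promoters of NF-κB genes (83.3%). The E2F motif was found in 2.70% of all tested promoters, in 6 of 35 DNA replication promoters (17.1%) and in 0 of 34 mitosis promoters. These are matches of letters, not measured binding.

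Many genes with the largest rises lay near each other in the genome. Of 318 positioned genes called at a log2 fold change of at least 5, 132 (41.5%) had another such gene within 100 kb, in 45 clusters. Of 208 at or below −5, 35 (16.8%) did. The largest cluster held 8 genes on chromosome 19 (34473778 to 34650009, GRCm38) and consists of the Ifit genes with Ch25h, the cholesterol 25-hydroxylase, and Gm26902. Guanylate-binding protein genes formed clusters of 7 genes on chromosome 5 and 6 genes on chromosome 3, and Cxcl9, Cxcl10 and Cxcl11 a cluster of 3 on chromosome 5. These clusters were picked after their values were seen and hold gene families that arose by duplication. The difference in share was not tested, and the classes differ in size. No share was computed for equally many tested genes of any kind.

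Most genes of antigen presentation through MHC class I rose, and 6 of 14 of class II did. Of 24 class I and peptide loading genes, 21 were called higher and 0 lower (20 and 3 under total counts), with a median log2 fold change of 3.09. H2-K1, a classical class I heavy chain, had 5527 and 5892 CPM in LPS+IFNγ libraries, against 703 and 329.9 CPM in control libraries (log2 fold change 3.47 ± 0.32, SE; adjusted p = 1.77e-05). Tap1, a subunit of the peptide transporter, had 970.2 and 1022 CPM in LPS+IFNγ libraries, against 65.9 and 31.6 CPM in control libraries (4.35 ± 0.30, adjusted p = 3.51e-06), and Psmb9, an immunoproteasome subunit, had 178 and 235 CPM in LPS+IFNγ libraries, against 29.9 and 17.1 CPM in control libraries (3.13 ± 0.25, adjusted p = 7.97e-06). The 3 members not called were Calr, Canx and Pdia3, general chaperones of the endoplasmic reticulum. Of 14 class II genes, 6 were called higher, 0 lower and 8 were not called, with a median of 1.12. Under total counts 3 were called higher and 1 lower with a median of 0.63, and the median was 0.71 without LPS+IFNγ library 1 and 0.58 without control library 2. H2-Ab1, a class II β chain, had 100.1 and 68.6 CPM in LPS+IFNγ libraries, against 17 and 2.49 CPM in control libraries (log2 fold change 3.11 ± 0.85, SE; adjusted p = 0.012). Cd74, the invariant chain, was not called at 289 and 173 CPM after LPS+IFNγ and 143 and 40.5 CPM in control (adjusted p = 0.0968). Ciita, the class II transactivator, was not called at 0.54 and 0.387 CPM after LPS+IFNγ and 3.96 and 0.487 CPM in control (adjusted p = 0.199). Control library 1 lay above control library 2 in all 3, and so did both WT control libraries. Without control library 1, Cd74 was called (log2 fold change 2.51, adjusted p = 0.0134), Ciita stood at −0.04 and H2-Ab1 at 5.08, and 8 class II members were called higher; without control library 2 the count was 3.

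Enzymes of nitric oxide and itaconate production rose. Of 19 genes of arginine, nitric oxide and itaconate metabolism, 10 were called higher and 4 lower (9 and 7 under total counts). Acod1, which makes itaconate, had 4659 and 4295 CPM in LPS+IFNγ libraries, against 13.1 and 0.0975 CPM in control libraries (log2 fold change 9.39 ± 1.33, SE; adjusted p = 0.000275), and its fitted value without control library 1, which leaves few control counts, was 15.38. Slc7a2, an arginine importer, had 2469 and 7517 CPM in LPS+IFNγ libraries, against 15.2 and 32 CPM in control libraries (7.72 ± 0.62, adjusted p = 7.97e-06). Ass1, which recycles citrulline to arginine, had 219 and 441 CPM in LPS+IFNγ libraries, against 6.4 and 2.05 CPM in control libraries (6.28 ± 0.54, adjusted p = 1.14e-05), and Gch1, the first enzyme of the Nos2 cofactor tetrahydrobiopterin, had 66.1 and 95.2 CPM in LPS+IFNγ libraries, against 13.5 and 13.9 CPM in control libraries (2.55 ± 0.22, adjusted p = 1.36e-05). In these 3 genes both LPS+IFNγ libraries lay above both control libraries, as in 5007 of all 13525 genes tested. Qdpr, which regenerates that cofactor, went the other way at 15.9 and 17.9 CPM after LPS+IFNγ and 76.8 and 81.6 CPM in control (−2.23 ± 0.14, adjusted p = 2.01e-06). Arg1, arginase 1, known as an IL-4 gene and also inducible by LPS, had 564 and 152 CPM in LPS+IFNγ libraries, against 1.24 and 2.39 CPM in control libraries (7.62 ± 0.72, adjusted p = 2.14e-05). Its level was higher in LPS+IFNγ library 1 than in library 2.

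**Figure D3:**
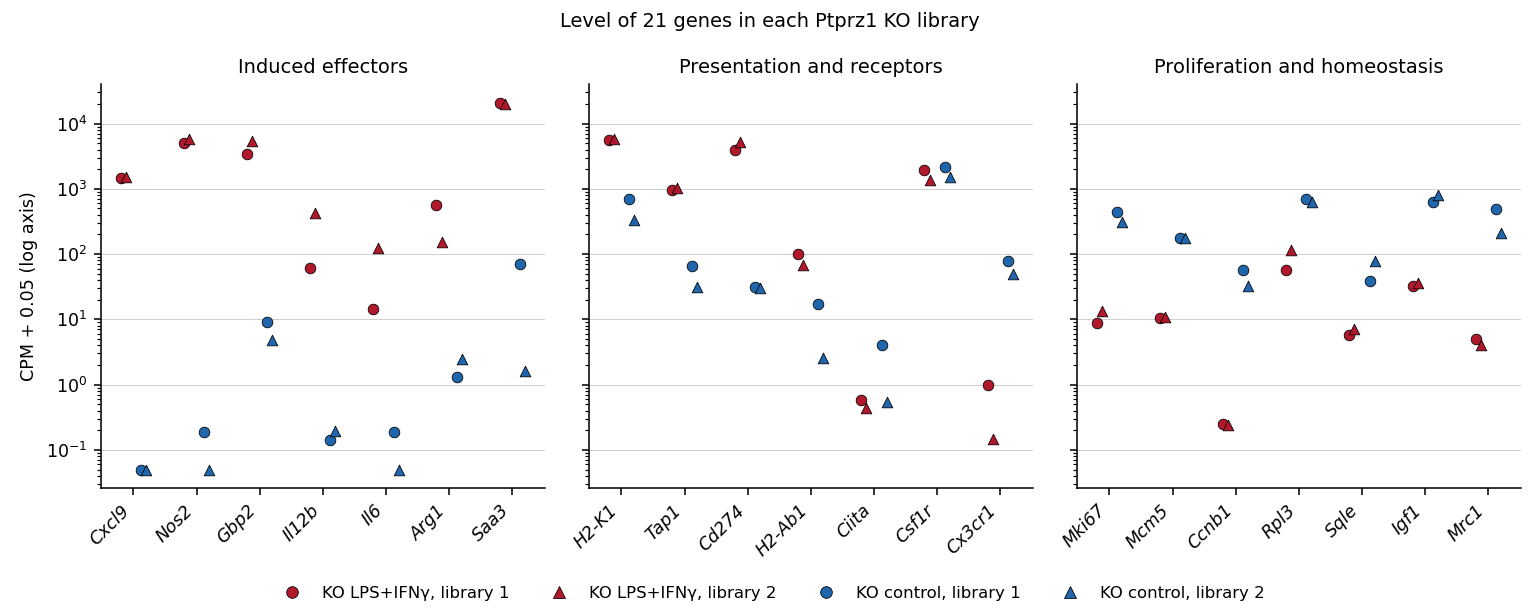
Each symbol is 1 library, with its level as CPM + 0.05 on a log axis; red symbols (left of each pair) are KO LPS+IFNγ libraries and blue symbols KO control libraries, circles library 1 and triangles library 2. Symbols at 0.05 are libraries with 0 counts. Il12b and Il6 differ between LPS+IFNγ libraries, and Saa3, H2-Ab1 and Ciita between control libraries.

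Chemokines for T cells and monocytes rose, and a few constitutive chemokines fell. Of 13 CXC and CX3C chemokines, 8 were called higher and 2 lower, and of 12 CC chemokines 8 were called higher and 1 lower. Cxcl10, a ligand of CXCR3 as are Cxcl9 and Cxcl11, had 2188 and 2716 CPM in LPS+IFNγ libraries, against 1.57 and 0.195 CPM in control libraries (log2 fold change 11.41 ± 0.64, SE; adjusted p = 1.22e-06). Ccl5, an attractant of T cells, had 9752 and 9158 CPM in LPS+IFNγ libraries, against 10.7 and 0.682 CPM in control libraries (10.68 ± 1.07, adjusted p = 3.05e-05), and Ccl2, which recruits monocytes, had 613 and 829 CPM in LPS+IFNγ libraries, against 7.28 and 7.46 CPM in control libraries (6.61 ± 0.20, adjusted p = 9.82e-08). The neutrophil chemokine Cxcl1 had 5.6 and 16 CPM in LPS+IFNγ libraries, against 0.461 and 0.0975 CPM in control libraries (5.22 ± 1.05, adjusted p = 0.00235). Among those that fell, Cxcl14 had 13 and 14 CPM in LPS+IFNγ libraries, against 39.5 and 107 CPM in control libraries (−2.44 ± 0.51, adjusted p = 0.00274; −1.55 without control library 2) and Ccl6 had 99.5 and 119 CPM in LPS+IFNγ libraries, against 652 and 363 CPM in control libraries (−2.22 ± 0.32, adjusted p = 0.000325). Chemoattractant receptors divided. Of a list of 18 that holds receptors for chemokines and also for complement fragments, formyl peptides, chemerin and leukotrienes, 9 were called higher and 6 lower. Fpr1, a receptor for bacterial formyl peptides, had 596 and 835 CPM in LPS+IFNγ libraries, against 9.81 and 0.975 CPM in control libraries (7.04 ± 0.81, adjusted p = 7.07e-05). Cx3cr1, the fractalkine receptor of resident macrophages, had 0.945 and 0.0968 CPM in LPS+IFNγ libraries, against 77.9 and 49.3 CPM in control libraries (−6.75 ± 0.52, adjusted p = 6.76e-06). Ccr2, the receptor of Ccl2, was not called at 2.9 and 0.581 CPM after LPS+IFNγ and 8.84 and 0.78 CPM in control (adjusted p = 0.313).

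Inflammatory and inhibitory cytokines rose side by side. Of 30 cytokine genes, 21 were called higher and 5 lower, with a median log2 fold change of 3.66. Il12b, the p40 chain of IL-12 and IL-23, had 62 and 421 CPM in LPS+IFNγ libraries, against 0.0921 and 0.146 CPM in control libraries (log2 fold change 10.91 ± 1.28, SE; adjusted p = 0.000269). Il6 had 14.6 and 126 CPM in LPS+IFNγ libraries, against 0.138 and 0 CPM in control libraries, a ratio of 848 over its 3 control counts (95% counting interval 289 to 4110; adjusted p = 0.000874). Tnf had 124 and 255 CPM in LPS+IFNγ libraries, against 16.2 and 15.2 CPM in control libraries (3.6 ± 0.35, adjusted p = 2.35e-05), and Il1b had 505 and 1160.5 CPM in LPS+IFNγ libraries, against 5.02 and 0.0975 CPM in control libraries (8.32 ± 0.99, adjusted p = 9.28e-05; 12.95 without control library 1). All 4 were higher in LPS+IFNγ library 2 than in library 1, Il6 and Il12b most. Il1rn, the soluble antagonist of the IL-1 receptor, had 2847 and 7304 CPM in LPS+IFNγ libraries, against 27.6 and 27.5 CPM in control libraries (7.52 ± 0.46, adjusted p = 1.86e-06); its control libraries were level, unlike those of Il1b. Il10, which restrains macrophages, had 43.7 and 93.9 CPM in LPS+IFNγ libraries, against 2.99 and 1.27 CPM in control libraries (4.998 ± 0.48, adjusted p = 2.46e-05), and Il27, a cytokine for T cells, had 22.8 and 60.2 CPM in LPS+IFNγ libraries, against 0.322 and 0.146 CPM in control libraries (7.41 ± 0.57, adjusted p = 6.61e-06). Igf1, a growth factor made by resident macrophages, fell, with 32.5 and 35.7 CPM in LPS+IFNγ libraries, against 625 and 794 CPM in control libraries (−4.38 ± 0.17, adjusted p = 2.41e-07). Of 17 inflammasome genes, 13 were called higher and 3 lower, among them Casp4, the mouse caspase-11 gene that senses cytosolic LPS, with 158 and 192 CPM in LPS+IFNγ libraries, against 11.3 and 6.53 CPM in control libraries (4.29 ± 0.28, adjusted p = 2.66e-06).

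In the LPS pathway several inhibitors rose, and the receptor Tlr4 was not called. Of 31 Toll-like receptors, partners and adaptors, 19 were called higher and 2 lower, with a median log2 fold change of 0.79 (13, 4 and 0.29 under total counts). Tlr4, the LPS receptor, was not called at 121 and 71.8 CPM after LPS+IFNγ and 140.3 and 107 CPM in control (adjusted p = 0.23), and was at −0.79 without LPS+IFNγ library 1 (adjusted p = 0.0142). Tlr2, the receptor of lipoproteins, was not called at 39.8 and 77.9 CPM after LPS+IFNγ and 83.2 and 35.3 CPM in control (adjusted p = 0.977). The cytosolic peptidoglycan sensors rose, Nod2 with 54.2 and 69.2 CPM in LPS+IFNγ libraries, against 3.69 and 2.97 CPM in control libraries (log2 fold change 4.21 ± 0.26, SE; adjusted p = 1.84e-06) and Nod1 with 326 and 284 CPM in LPS+IFNγ libraries, against 23.5 and 11.5 CPM in control libraries (4.12 ± 0.30, adjusted p = 5.04e-06). Irak3, a brake on MyD88 signalling, had 208 and 302 CPM in LPS+IFNγ libraries, against 32.1 and 18.2 CPM in control libraries (3.34 ± 0.26, adjusted p = 7.16e-06), while the kinase Irak1 fell, with 70.2 and 76.6 CPM in LPS+IFNγ libraries, against 147 and 148 CPM in control libraries (−1.01 ± 0.10, adjusted p = 3.4e-05). Without LPS+IFNγ library 1, 4 members of this list were called lower. Of 23 NF-κB genes, 22 were called higher and 0 lower, with a median of 2.27. Nfkbia, the inhibitor IκBα, had 753 and 872 CPM in LPS+IFNγ libraries, against 72 and 43.8 CPM in control libraries (3.81 ± 0.24, adjusted p = 2.27e-06). Tnfaip3, the ubiquitin-editing inhibitor A20, had 276 and 596 CPM in LPS+IFNγ libraries, against 24.9 and 29 CPM in control libraries (4.01 ± 0.33, adjusted p = 9.92e-06), and Traf1, a signalling adaptor, had 269 and 275 CPM in LPS+IFNγ libraries, against 4.84 and 2.58 CPM in control libraries (6.19 ± 0.32, adjusted p = 7.1e-07).

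Of 19 costimulatory and checkpoint genes, which set how macrophages instruct T cells, 14 were called higher and 2 lower (5 lower under total counts). Cd40 had 191 and 195 CPM in LPS+IFNγ libraries, against 6.31 and 4.24 CPM in control libraries (log2 fold change 5.19 ± 0.20, SE; adjusted p = 2.21e-07), and Cd86, a ligand of CD28, had 125 and 227 CPM in LPS+IFNγ libraries, against 4.19 and 2.1 CPM in control libraries (5.8 ± 0.41, adjusted p = 4.22e-06). Cd274, which encodes the checkpoint ligand PD-L1, had 3966 and 5186 CPM in LPS+IFNγ libraries, against 31.3 and 30.4 CPM in control libraries (7.21 ± 0.22, adjusted p = 9.82e-08). In all 3 genes the groups lay far apart, and the libraries of each group were close for Cd40 and Cd274. Havcr2, the receptor TIM-3, fell, with 7.29 and 8.32 CPM in LPS+IFNγ libraries, against 14.9 and 23.2 CPM in control libraries (−1.29 ± 0.25, adjusted p = 0.00184).

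Most genes of opsonisation and oxidative killing rose. Of 22 Fc receptor and complement genes, 15 were called higher and 5 lower. Cfb, complement factor B, had 2842 and 2936 CPM in LPS+IFNγ libraries, against 9.81 and 0 CPM in control libraries (log2 fold change 9.19 ± 1.24, SE; adjusted p = 0.000206). Without control library 1 its fitted value was 18.63, which depends on the prior count because control library 2 has 0 counts. C3 had 4229.5 and 3351 CPM in LPS+IFNγ libraries, against 98.2 and 13.3 CPM in control libraries (6.09 ± 0.95, adjusted p = 0.000502), and Fcgr2b, the inhibitory Fc receptor, had 494 and 548 CPM in LPS+IFNγ libraries, against 19.1 and 17.7 CPM in control libraries (4.82 ± 0.20, adjusted p = 3.17e-07). Of 8 NADPH oxidase genes, 6 were called higher and 0 lower (4 and 1 under total counts). Cybb, the catalytic subunit, had 5201 and 5149.8 CPM in LPS+IFNγ libraries, against 1202 and 1013 CPM in control libraries (2.22 ± 0.18, adjusted p = 8.29e-06), and Ncf1, a cytosolic subunit, had 649 and 621 CPM in LPS+IFNγ libraries, against 345 and 274 CPM in control libraries (1.04 ± 0.14, adjusted p = 0.00019). The groups did not overlap in either gene, as in 74.1% of all genes tested.

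Most glycolytic genes rose, and 12 genes in a list of the tricarboxylic acid (TCA) cycle and related enzymes fell. Of 27 genes of glycolysis and lactate export, 18 were called higher and 2 lower, with a median log2 fold change of 1.39. Under total counts 16 were called higher and 6 lower with a median of 0.9, and the number lower was 4 without LPS+IFNγ library 1 and 0 without control library 2. Pfkfb3, which makes the activator of phosphofructokinase, moved furthest, with 2716 and 3900 CPM in LPS+IFNγ libraries, against 33.7 and 41.7 CPM in control libraries (log2 fold change 6.46 ± 0.24, SE; adjusted p = 1.9e-07). Slc2a1, the glucose transporter GLUT1, had 350.3 and 414 CPM in LPS+IFNγ libraries, against 41.1 and 78.9 CPM in control libraries (2.67 ± 0.29, adjusted p = 5.16e-05), and Hk2, a hexokinase, had 181 and 220.1 CPM in LPS+IFNγ libraries, against 47 and 54.2 CPM in control libraries (1.99 ± 0.14, adjusted p = 4.03e-06). Ldha, lactate dehydrogenase A, had 1527 and 1486 CPM in LPS+IFNγ libraries, against 484 and 544 CPM in control libraries (1.55 ± 0.14, adjusted p = 1.9e-05), and the lactate exporter Slc16a3 had 371 and 239.6 CPM in LPS+IFNγ libraries, against 27.7 and 30.9 CPM in control libraries (3.38 ± 0.27, adjusted p = 7.5e-06). Glucose import, hexokinase, lactate formation and lactate export were thus all among the rises. Of the 26 genes in that list, 4 were called higher and 12 lower, with a median log2 fold change of −0.17. Among the 12 was Idh1, the cytosolic isocitrate dehydrogenase, which is not an enzyme of the cycle itself. It had 82.7 and 65.1 CPM in LPS+IFNγ libraries, against 242 and 242 CPM in control libraries (−1.71 ± 0.16, adjusted p = 1.87e-05). Idh2, a mitochondrial isocitrate dehydrogenase, had 10.1 and 12.3 CPM in LPS+IFNγ libraries, against 65.9 and 66.5 CPM in control libraries (−2.57 ± 0.13, adjusted p = 8.26e-07). Suclg2, a subunit of succinyl-CoA ligase, had 5.6 and 5.9 CPM in LPS+IFNγ libraries, against 32.4 and 28.8 CPM in control libraries (−2.41 ± 0.16, adjusted p = 2.36e-06). Under total counts, 0 TCA genes were called higher and 22 lower, and without LPS+IFNγ library 1 or control library 2 the number called higher was 2.

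Of 48 nuclear-encoded respiratory chain genes, 6 were called higher and 9 lower, with log2 fold changes of −0.95 to 0.64. Their direction rests on the scaling, since under total counts 0 were called higher and 36 lower, and the median was −0.56 in place of −0.06. Without control library 1 the counts of 6 and 9 were 2 and 4, the number called higher was 3 without LPS+IFNγ library 2, and the number called lower was 5 without control library 2. Mitochondrially encoded RNA divided by kind. Of 15 transcripts, 7 were called lower, all of them mRNAs, and the 2 called higher were the ribosomal RNAs (13 lower and 2 higher under total counts). mt-Nd1, a subunit of complex I, had 408 and 614 CPM in LPS+IFNγ libraries, against 1332 and 1794 CPM in control libraries (log2 fold change −1.61 ± 0.33, SE; adjusted p = 0.00254). mt-Rnr2, the large ribosomal RNA of mitochondria, had 1253 and 5591 CPM in LPS+IFNγ libraries, against 482 and 609 CPM in control libraries (2.65 ± 0.53, adjusted p = 0.00228), and mt-Rnr1 had 359 and 934 CPM in LPS+IFNγ libraries, against 130.0 and 102 CPM in control libraries (2.48 ± 0.37, adjusted p = 0.000395). LPS+IFNγ library 2 carried much of both rises: without it they were 1.2 and 1.63. The number of transcripts called lower was 1 without LPS+IFNγ library 1, 3 without LPS+IFNγ library 2, 6 without control library 1 and 1 without control library 2.

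Most cholesterol synthesis genes fell. Of 24 cholesterol synthesis genes, 18 were called lower and 0 higher, with a median log2 fold change of −1.56. Sqle, squalene epoxidase, had 5.81 and 7.07 CPM in LPS+IFNγ libraries, against 39.2 and 79.4 CPM in control libraries (log2 fold change −3.21 ± 0.34, SE; adjusted p = 4.56e-05), and Idi1, an isomerase of the isoprenoid branch, had 10.6 and 6.1 CPM in LPS+IFNγ libraries, against 57.2 and 86.3 CPM in control libraries (−3.08 ± 0.30, adjusted p = 2.39e-05). Control library 2 lay above control library 1 in both genes. Of 34 genes of lipid uptake, storage and efflux, 13 were called higher and 12 lower (11 and 20 under total counts). Main-fit shares over all genes tested were 27.2% higher and 26.1% lower. Abca1, a cholesterol exporter, rose, with 620.1 and 775 CPM in LPS+IFNγ libraries, against 179.9 and 229.6 CPM in control libraries (1.77 ± 0.24, adjusted p = 0.000193), and Cd36, a fatty acid importer, fell, with 847 and 978 CPM in LPS+IFNγ libraries, against 3425 and 5291 CPM in control libraries (−2.26 ± 0.21, adjusted p = 1.7e-05). Pparg, a transcription factor of lipid uptake, fell too, with 2.43 and 2.23 CPM in LPS+IFNγ libraries, against 47.6 and 42.5 CPM in control libraries (−4.26 ± 0.24, adjusted p = 1.11e-06). Ch25h, which makes the antiviral 25-hydroxycholesterol, had 10.5 and 214 CPM in LPS+IFNγ libraries, against 0.276 and 0.39 CPM in control libraries (8.36 ± 1.48, adjusted p = 0.00155; 4.96 without LPS+IFNγ library 2). Apoe was abundant in both groups and not called, with 11420 and 11480 CPM after LPS+IFNγ and 11382 and 7077 CPM in control (adjusted p = 0.41).

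The cyclooxygenase genes moved in opposite directions. Ptgs2, the inducible cyclooxygenase, had 427 and 1021 CPM in LPS+IFNγ libraries, against 1.61 and 0.439 CPM in control libraries (log2 fold change 9.44 ± 0.71, SE; adjusted p = 5.69e-06), and Ptges, the inducible prostaglandin E synthase, had 477 and 454 CPM in LPS+IFNγ libraries, against 3.87 and 1.9 CPM in control libraries (7.32 ± 0.36, adjusted p = 6.03e-07). Ptgs1, the constitutive cyclooxygenase, fell, with 5.06 and 2.23 CPM in LPS+IFNγ libraries, against 149.9 and 91 CPM in control libraries (−4.99 ± 0.39, adjusted p = 6.76e-06). In the list of 15 prostaglandin and leukotriene genes, 5 were called higher and 7 lower (4 and 9 under total counts).

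Antioxidant genes mostly rose, and iron genes divided. Of 25 NRF2 target and antioxidant genes, 15 were called higher and 3 lower (11 and 6 under total counts). Hmox1, haem oxygenase 1, had 6769 and 4793 CPM in LPS+IFNγ libraries, against 405 and 700.4 CPM in control libraries (log2 fold change 3.39 ± 0.29, SE; adjusted p = 1.26e-05), Sod2, the mitochondrial superoxide dismutase, had 1563 and 2660.3 CPM in LPS+IFNγ libraries, against 99.5 and 88.8 CPM in control libraries (4.49 ± 0.24, adjusted p = 8.85e-07), and Slc7a11, the cystine importer, had 459.7 and 736 CPM in LPS+IFNγ libraries, against 11 and 19 CPM in control libraries (5.32 ± 0.32, adjusted p = 1.71e-06). The cytosolic dismutase Sod1 fell, with 110.1 and 104 CPM in LPS+IFNγ libraries, against 225 and 184 CPM in control libraries (−0.93 ± 0.13, adjusted p = 0.00027). Of 15 iron genes, 7 were called higher and 6 lower. Lcn2, which sequesters bacterial iron carriers, had 1862 and 2765 CPM in LPS+IFNγ libraries, against 5.57 and 0.244 CPM in control libraries (9.62 ± 1.12, adjusted p = 7.8e-05). Slc40a1, the iron exporter ferroportin, had 91.9 and 21.3 CPM in LPS+IFNγ libraries, against 232 and 169 CPM in control libraries (−1.81 ± 0.50, adjusted p = 0.012), and was not called without control library 1 (−1.57, adjusted p = 0.0536). Its fitted value was −3.24 without LPS+IFNγ library 1 and −1.12 without LPS+IFNγ library 2.

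Matrix and adhesion genes moved in both directions. Of 19 matrix protease and inhibitor genes, 10 were called higher and 3 lower. Mmp13, a collagenase, had 468 and 1620.2 CPM in LPS+IFNγ libraries, against 42.3 and 44.5 CPM in control libraries (log2 fold change 4.59 ± 0.48, SE; adjusted p = 4.23e-05), and Plau, the urokinase, fell, with 20.7 and 27.4 CPM in LPS+IFNγ libraries, against 134 and 239 CPM in control libraries (−2.96 ± 0.28, adjusted p = 2.24e-05). Of 20 integrin and adhesion genes, 8 were called higher and 7 lower (7 and 10 under total counts). The shares over all genes tested in the main fit were 27.2% and 26.1%. Itgal, the α chain of LFA-1, had 453 and 677 CPM in LPS+IFNγ libraries, against 32.8 and 40.6 CPM in control libraries (3.94 ± 0.40, adjusted p = 3.16e-05), and Itga6, a laminin receptor chain, fell, with 26.9 and 19.6 CPM in LPS+IFNγ libraries, against 260.0 and 249 CPM in control libraries (−3.44 ± 0.22, adjusted p = 2.18e-06). Of 12 purinergic genes, 6 were called higher and 2 lower (4 and 5 under total counts). The adenosine receptors among them rose, with Adora2a at 57.8 and 74.9 CPM after LPS+IFNγ and 0.829 and 0.439 CPM in control (6.68 ± 0.30, adjusted p = 4.25e-07) and Adora2b at 22.1 and 65.6 CPM after LPS+IFNγ and 2.67 and 2.1 CPM in control (4.19 ± 0.51, adjusted p = 0.00011). Both raise cyclic AMP.

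Core macrophage genes divided, and most clearance genes fell. Of 30 core macrophage genes, 13 were called higher and 12 lower. Csf1r, the M-CSF receptor, was not called at 1951 and 1370.4 CPM after LPS+IFNγ and 2166 and 1536 CPM in control (adjusted p = 0.574). Adgre1, the F4/80 antigen, rose, with 4153 and 2908 CPM in LPS+IFNγ libraries, against 1757 and 1035 CPM in control libraries (log2 fold change 1.34 ± 0.25, SE; adjusted p = 0.00145), as did Mertk, a receptor for apoptotic cells, with 354 and 403 CPM in LPS+IFNγ libraries, against 123 and 152 CPM in control libraries (1.46 ± 0.19, adjusted p = 0.000144). C1qa, a chain of complement C1q, fell, with 246 and 185 CPM in LPS+IFNγ libraries, against 532 and 378 CPM in control libraries (−1.08 ± 0.24, adjusted p = 0.00377). Of 37 lysosomal genes, 11 were called higher and 13 lower, and 6 and 23 under total counts. In the main fit the shares over all genes tested were 27.2% higher and 26.1% lower. Of 26 efferocytosis and scavenging genes, 19 were called lower and 5 higher, with a median log2 fold change of −1.53. Gas6, the bridging ligand of Mertk, had 10.3 and 10.5 CPM in LPS+IFNγ libraries, against 279.8 and 255 CPM in control libraries (−4.69 ± 0.27, adjusted p = 1.32e-06), and Mrc1, the mannose receptor, had 4.93 and 4.07 CPM in LPS+IFNγ libraries, against 487 and 213 CPM in control libraries (−6.27 ± 0.42, adjusted p = 2.94e-06). Marco, a scavenger receptor for bacteria, rose against the list, with 1423 and 1992 CPM in LPS+IFNγ libraries, against 27 and 2.49 CPM in control libraries (6.85 ± 0.91, adjusted p = 0.000187). The receptor Mertk and its ligand Gas6 thus moved in opposite directions.

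The KO response to IL-4 shares these control libraries, so IL-4 is given only as levels of 3 genes. Mrc1 averaged 803 CPM under IL-4, Arg1 1406 CPM and Cd36 5509 CPM. All 27 tested M1 markers were called higher after LPS+IFNγ, with a median log2 fold change of 7.49. Such markers are defined by this stimulus, and the list was chosen with earlier results of these data known. That all of them rose is therefore no independent finding. Of 27 M2 markers, 7 were called higher and 10 lower. Mgl2, a lectin, was not called at 0.27 and 0.0968 CPM after LPS+IFNγ and 0.0461 and 0.0487 CPM in control (adjusted p = 0.128).

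Every tested gene of the replication and mitosis lists fell. All 42 tested genes of DNA replication and S phase were called lower, with a median log2 fold change of −3.57, and all 41 of mitosis, with a median of −5.53. The mitosis genes summed to 130 and 153 CPM after LPS+IFNγ and to 3133 and 1881 CPM in control. Mki67, a marker of cycling cells, had 8.78 and 13.4 CPM in LPS+IFNγ libraries, against 448 and 315 CPM in control libraries (log2 fold change −5.12 ± 0.40, SE; adjusted p = 6.76e-06). Top2a, the topoisomerase of mitotic chromosomes, had 2.3 and 2.9 CPM in LPS+IFNγ libraries, against 451 and 268 CPM in control libraries (−7.13 ± 0.34, adjusted p = 4.88e-07), and Ccnb1, cyclin B1, had 0.203 and 0.194 CPM in LPS+IFNγ libraries, against 56.4 and 32.1 CPM in control libraries (−7.75 ± 0.58, adjusted p = 5.56e-06). Among replication genes, Mcm5, a subunit of the helicase whose promoter is shown above, had 10.3 and 10.6 CPM in LPS+IFNγ libraries, against 179 and 174 CPM in control libraries (−4.07 ± 0.17, adjusted p = 2.82e-07), Rrm2, a subunit of ribonucleotide reductase, had 0.135 and 0.581 CPM in LPS+IFNγ libraries, against 152 and 112 CPM in control libraries (−8.65 ± 0.46, adjusted p = 8.72e-07), and Pole, the leading-strand polymerase, had 0.338 and 0.387 CPM in LPS+IFNγ libraries, against 63.3 and 57.7 CPM in control libraries (−7.37 ± 0.17, adjusted p = 5.93e-08). Mki67, Top2a and Ccnb1 were higher in control library 1 than in control library 2, while Mcm5 was nearly level. Cdkn1a, the cell cycle inhibitor p21, named here after its value was seen, had 552 and 747 CPM in LPS+IFNγ libraries, against 116 and 109 CPM in control libraries (2.53 ± 0.17, adjusted p = 2.8e-06).

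Most ribosomal protein genes fell. Of 46 tested, 43 were called lower and 0 higher, with a median log2 fold change of −1.35. They summed to 5967 and 8603 CPM after LPS+IFNγ, against 18990 and 16960 CPM in control. Rpl3 had 57.1 and 115 CPM in LPS+IFNγ libraries, against 688 and 630.1 CPM in control libraries (log2 fold change −2.94 ± 0.27, SE; adjusted p = 1.74e-05), Rpl10a had 13.2 and 31.3 CPM in LPS+IFNγ libraries, against 152 and 154 CPM in control libraries (−2.8 ± 0.30, adjusted p = 5.11e-05) and Rpl5 had 4.73 and 6.29 CPM in LPS+IFNγ libraries, against 33.4 and 34.3 CPM in control libraries (−2.63 ± 0.31, adjusted p = 8.18e-05). LPS+IFNγ library 2 lay above library 1 in all 3, and the median of the list was −1.08 without library 1 and −1.73 without library 2. The 3 members not called were Rps24, Rpl24 and Rpl27. Ribosomal protein genes have many processed pseudogenes, which can share reads with them.

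Genes of both survival and death rose. Of 25 genes of the BCL2 family and cell death, 15 were called higher and 3 lower (13 and 6 under total counts). Cflar, an inhibitor of caspase-8, had 1237 and 1658 CPM in LPS+IFNγ libraries, against 113 and 114 CPM in control libraries (log2 fold change 3.68 ± 0.16, SE; adjusted p = 3.46e-07), and Fas, a death receptor, had 35.2 and 45.3 CPM in LPS+IFNγ libraries, against 3.04 and 1.56 CPM in control libraries (4.12 ± 0.34, adjusted p = 9.65e-06). Bcl2 fell, with 3.92 and 3.87 CPM in LPS+IFNγ libraries, against 14 and 21.8 CPM in control libraries (−2.2 ± 0.26, adjusted p = 9.07e-05). Of 24 genes of endoplasmic reticulum stress, 11 were called higher and 1 lower, counts that became 7 and 10 under total counts; the number lower was 3 without LPS+IFNγ library 2. Among those that rose was Ddit3, the factor CHOP, with 40.2 and 55.4 CPM in LPS+IFNγ libraries, against 8.29 and 9.26 CPM in control libraries (2.44 ± 0.17, adjusted p = 3.77e-06).

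Other protein tyrosine phosphatases and partners of the missing phosphatase were examined because the cells lack Ptprz1. In WT, 8 of 17 phosphatases were called higher and 4 lower, and 3 and 4 of 17 partners. Over all genes tested in KO, 27.2% were called higher and 26.1% lower. Of 17 phosphatases tested in KO, 7 were called higher and 4 lower, with a median log2 fold change of 0.16. Under total counts 5 were called higher and 5 lower and the median was −0.33; it was 0.3 without control library 1 and 0.42 without control library 2. Ptprs, a receptor phosphatase for heparan and chondroitin sulphate proteoglycans, fell, with 38.5 and 29.7 CPM in LPS+IFNγ libraries, against 95.8 and 117 CPM in control libraries (log2 fold change −1.64 ± 0.16, SE; adjusted p = 2.59e-05). Ptprm, an adhesion phosphatase, had 21.7 and 8.13 CPM in LPS+IFNγ libraries, against 3.13 and 3.51 CPM in control libraries (2.17 ± 0.52, adjusted p = 0.00634), and was not called without LPS+IFNγ library 1 (1.28, adjusted p = 0.075). Of 17 tested ligands, co-receptors and substrates in the PTPRZ axis, 4 were called higher and 6 lower. Under total counts 3 were called higher and 10 lower, and without LPS+IFNγ library 2 or control library 1 the number higher was 2. Sdc4, syndecan 4, a proteoglycan that binds the same ligands, rose, with 821 and 1299 CPM in LPS+IFNγ libraries, against 129.5 and 100.4 CPM in control libraries (3.2 ± 0.23, adjusted p = 3.84e-06), and Nrp1, neuropilin 1, a co-receptor for semaphorins, fell, with 46 and 43.4 CPM in LPS+IFNγ libraries, against 337 and 422 CPM in control libraries (−3.08 ± 0.14, adjusted p = 4.74e-07).

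WT macrophages changed mostly in the same directions. In WT, 7348 genes (54.3%) were called, 3700 higher (27.4%) and 3648 lower (27.0%). Of the genes called in KO cells, 86.95% were called in the same direction in WT, and of those called in WT, 85.23% were called so in KO. Across the 13525 genes, which are not independent, Pearson's r between log2 fold changes in KO and WT was 0.907. The test of the difference itself, KO response minus WT response, called 0 genes (0.0%) in edgeR, while DESeq2 called 6. At an unadjusted p under 0.05 there were 476 genes in the main fit, where a uniform p would give 676. Without KO LPS+IFNγ library 1 or KO control library 1 the number was above that of a uniform p. Without any other single LPS+IFNγ or control library it stayed below. What the shortfall in the main fit rests on was not tested. Xist, expressed from the inactive X chromosome, had 0 counts in the 4 KO libraries and 232 to 618 CPM in the 4 WT libraries. Ddx3y, a Y-linked gene, had 86.3 to 108 CPM in those KO libraries and 0 counts in those WT libraries. Sex and genotype therefore cannot be told apart in this test.

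Whether KO and WT cells differ in DNA other than the Ptprz1 allele was not tested. Met and Gm20186, given next, both lie on chromosome 6. For neither gene can sex, DNA carried along with the Ptprz1 allele and loss of Ptprz1 be told apart. Among genes outside the sex chromosomes, the lowest p of that test was that of Gm20186, a noncoding RNA on chromosome 6. It had 106 and 118 CPM in LPS+IFNγ libraries, against 2.3 and 1.32 CPM in control libraries (log2 fold change 5.94 in KO and 3.14 in WT; difference 2.8 ± 0.33, SE; adjusted p = 0.144). Met, the receptor of hepatocyte growth factor, had 83.2 and 93.6 CPM in LPS+IFNγ libraries, against 2.17 and 2.49 CPM in control libraries (5.24 in KO and 3.89 in WT; difference 1.36 ± 0.21, SE; adjusted p = 0.562). DESeq2 called both (adjusted p = 1.19e-12 and 0.00668), as did edgeR with no filter on low counts (2.49e-07 and 0.0141), and Gm20186 was also called without KO LPS+IFNγ library 1 (0.0358) or KO control library 2 (0.0489). Ccne2, cyclin E2, had 1.01 and 0.871 CPM in LPS+IFNγ libraries, against 41.9 and 40.02 CPM in control libraries (−5.42 in KO and −3.82 in WT; difference −1.6 ± 0.26, SE; adjusted p = 0.562). Cd72, an inhibitory receptor, was the 1 gene called in opposite directions, with 384 and 329 CPM in LPS+IFNγ libraries, against 444 and 455 CPM in control libraries (−0.33 in KO and 0.53 in WT; difference −0.86 ± 0.16, SE; adjusted p = 0.869). DESeq2 called its difference (−0.87, adjusted p = 1.39e-05). In KO it was not called without LPS+IFNγ library 2 (adjusted p = 0.127), control library 1 (0.0626) or control library 2 (0.088). Zfp973, a zinc finger protein gene, had 0 and 0 CPM in LPS+IFNγ libraries, against 1.66 and 3.22 CPM in control libraries in KO (log2 fold change −0.64 in WT), and its difference was not called (adjusted p = 0.574) but was with no filter on low counts (adjusted p = 0.0141). Without KO LPS+IFNγ library 1 the test of the difference called 17 genes higher and 10 lower, and without KO control library 2 1 higher and 10 lower.

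**Figure D4:**
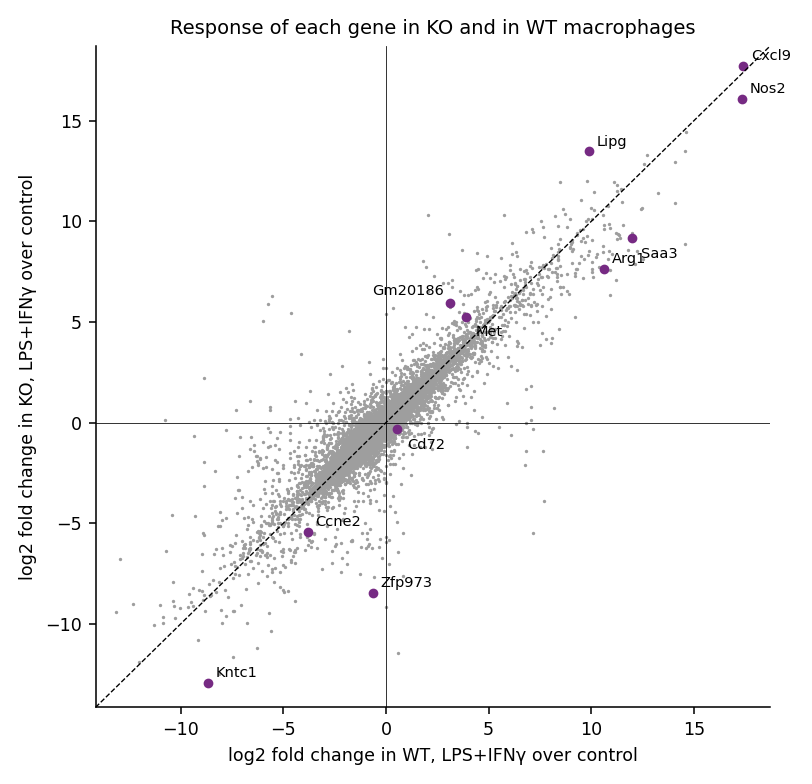
Each point is 1 gene, with its log2 fold change of LPS+IFNγ over control in KO macrophages on the y axis and in WT macrophages on the x axis; the dashed line marks equal change. Points lie along the line, and the labelled points Gm20186 and Met lie above it and Ccne2 below it. Zfp973 and Kntc1 lie below the line and have 0 counts in both KO LPS+IFNγ libraries, so their fitted values depend on the prior count.

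Within the KO libraries, changes computed from library 1 alone and from library 2 alone were close for most genes. Over called genes the median gap between these log2 folds was 0.30, 676 had a gap above 1 and 0 had opposite signs. The 5 called genes with the largest gaps, among those with at least 10 CPM in the higher group, were Saa3, Ifit3, Cfb, Il1b and Acod1. Each had a higher level in control library 1 than in control library 2, by a larger factor than between LPS+IFNγ libraries. For Saa3 the log2 fold was 8.21 within library number 1 and 13.24 within number 2, and for Ifit3 it was 4.99 and 9.87. Arg1 had the opposite order.

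**Figure D5:**
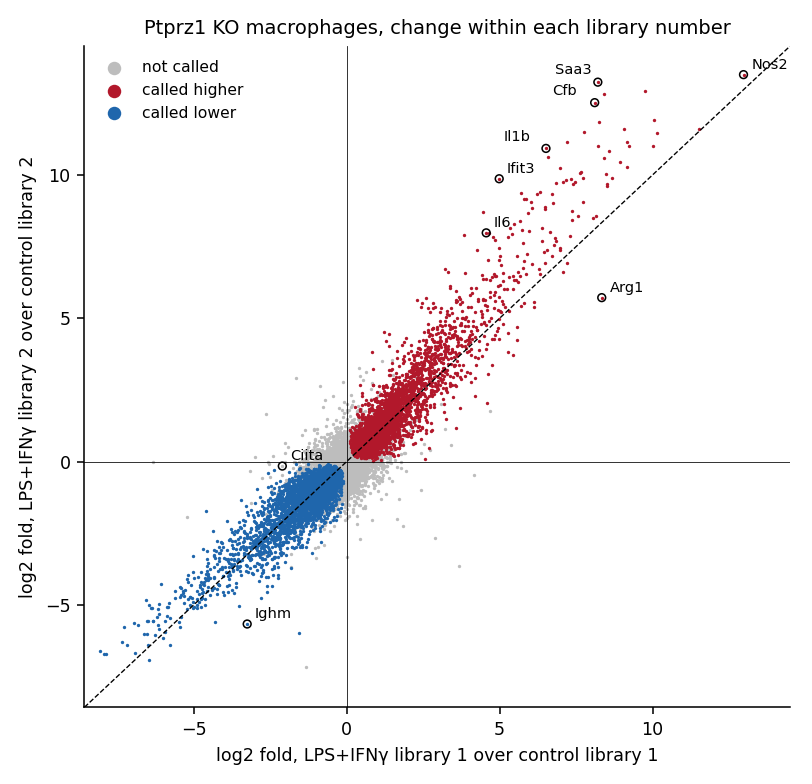
Each point is 1 gene, with the log2 fold of LPS+IFNγ library 1 over control library 1 on the x axis and of library 2 over library 2 on the y axis, computed as log2(CPM + 0.5); the dashed line marks equal values. Red points were called higher and blue points lower. Among the labelled strong rises, Saa3, Cfb, Il1b and Ifit3 lie far above the line and Arg1 below it.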

How the data were processed

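Per the labels' protocols, total RNA of bone marrow derived macrophages was isolated with an innuPREP kit and made into directional NEBNext Ultra II libraries. The deposited values are estimated counts per gene (expected counts, whole numbers in the table), and the submitters' processing notes name Salmon 1.10.2, DESeq2 1.45.3, R 4.4.1, FastQC 0.11.9 and the build GRCm39 without their roles. Annotation and strand use were not given in the sources used here. Coordinates and symbols come from GENCODE M21 on GRCm38, which matched 51425 of 55891 identifiers (92.0%).

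Genes were filtered with filterByExpr, scaled with TMM and fitted with edgeR 4.0.16 in R 4.3.3 to all 12 libraries with 6 group coefficients, and quasi-likelihood tests were adjusted by Benjamini-Hochberg over 13525 genes at 0.05. SE is the absolute log2 fold change divided by the root of F. The code was tested on simulated data. Depth was 13665607 to 19555600 counts in the 4 KO libraries, and intervals and the limit of 3 counts cover counting error only. Where a group had 0 counts, the fold is a bound against 3 counts per library.

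Alternatives were DESeq2 1.42.0 and its size factors, total counts, no filter on low counts, a replicate block, fewer libraries in the fit and leaving out each library. Gene lists are described by counts and medians with no set test. The members and lists were chosen with earlier results of these data known. Named genes were a list of known genes, the 15 largest called rises and falls at 10 CPM or more in the higher group without overlap, up to 3 members of a list with the largest called changes and the largest against its majority, the 5 with the largest gap between library numbers, and the 5 autosomal genes of lowest p in the difference between KO and WT. Some genes that this rule names are not reported here.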

Additional observations from a re-analysis of the deposited data

How the results depend on the processing

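With total counts in place of TMM factors, 1990 genes were called higher and 6049 lower in KO macrophages and 2048 and 6170 in WT macrophages, and all log2 fold changes moved down by about the shift of the median (−0.51 in KO). Requiring an absolute log2 fold change of at least 1 left 2060 higher and 2161 lower in KO. DESeq2 size factors (3668 and 3519), DESeq2 (3641 and 3513), no filter on low counts (3378 and 3548), the 4 libraries alone (2610 and 2581) and the 6 KO libraries alone (2806 and 2704) stayed within 1.5 times of the main counts of 3676 and 3527. Leaving out each library in turn gave 3050 to 3317 higher and 2937 to 3222 lower in KO, and 2776 to 2972 and 2809 to 2925 in WT. For the difference between the responses of KO and WT, DESeq2 called 4 genes higher and 2 lower, no filter on low counts 5 and 3, and leaving out each library 0 to 17 higher and 0 to 10 lower. The cause of these moves was not tested.

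The labels do not say that a library number marks a shared animal or day. With the number as a replicate block, 3868 genes were called higher and 3800 lower in KO, 3889 and 3933 in WT and 0 and 0 for the difference. Among gene lists, 10 class II genes were called higher and 1 lower with the block, 4 stromal markers higher and 4 lower, and 1 osteoclast marker higher and 5 lower. Deviations of number 2 from number 1 correlated at 0.271 between KO LPS+IFNγ and KO control libraries, and at 0.0464 to 0.337 over the 15 pairs of groups. With 2 libraries a group this is a hint from the data and does not establish a pairing.

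Genes that were not called changed sign in places. Under total counts Irf8 was at −0.26 and Apoe at −0.19. Tlr2 was at 0.071 with the block. Without single libraries Tlr2 ranged from −0.58 to 0.73 (positive without LPS+IFNγ library 1 or control library 1), Ccr2 from −3.05 to 1.21 (positive without control library 1) and Csf1r from −0.44 to 0.11 (positive without LPS+IFNγ library 2 or control library 1). With 2 libraries a group, a level under 0.290 CPM is at the detection limit, and folds of genes near it are set by a few counts.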

Other observations

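By annotated kind, transcripts labelled antisense divided unevenly. Of 191 tested, 60 were called higher and 14 lower, against 3334 higher and 3335 lower of 12047 protein-coding genes. Of 228 lincRNAs, 56 were called higher and 33 lower, and of 338 processed pseudogenes 53 and 61. The libraries were made with a directional kit, but whether the counting used strand was not given in the sources used here, so reads of an antisense gene and of its partner cannot be told apart, and pseudogenes can share reads with their parent genes.

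Gene families matched by symbol add to the lists. All 10 members of the membrane-spanning 4-domain family tested were called higher, with a median log2 fold change of 4.23. Of 31 kinesins, motor proteins of which many serve the spindle, 6 were called higher and 16 lower. Of 17 histone genes, 7 were called higher and 1 lower. Of 199 solute carriers, 66 were called higher and 70 lower, where 27.2% and 26.1% of all genes tested were. Of 12 genes of the PARP family, which transfer ADP-ribose, 7 were called higher and 1 lower.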
